A study of Mus musculus with 8 samples.

Results

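HuR, the protein encoded by Elavl1, belongs to a group of proteins that bind AU-rich elements, short stretches of A and U in the 3′ untranslated region (3′ UTR) of short-lived mRNAs. HuR holds such mRNAs stable, whereas tristetraprolin (encoded by Zfp36) and its relatives recruit the CCR4-NOT complex, which removes the poly(A) tail and starts decay. Because the binders compete for overlapping sites, a liver labelled as lacking HuR raises the question of whether the other binders change with it. The genes described here are 10 listed by name among the 45706 genes of the count table: Elavl1 and its neuronal relative Elavl2, the decay-promoting Zfp36, Zfp36l1, Zfp36l2 and Khsrp, the translational repressors Tia1 and Tial1, the GU-rich element binder Celf1, and the cold-shock domain gene Ybx1. Each listed symbol matched 1 gene, and 9 of the 10 passed the filter on low counts.

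RNA-seq libraries were made from the livers of 4 mice labelled HuR KO and 4 mice labelled HuR WT, with 1 library per mouse, all on the C57BL/6 background. Which part of Elavl1 was deleted, in which cells, and by which promoter or Cre is not given in the sources used here, and neither is the age of the animals; no treatment is named. The animal numbers in the titles form a low series (98 to 100, with KO replicates 3 and 4 and WT replicate 3) and a series of 4 digits (the other 5 mice), and what separates them is not stated. Total counts ranged from 18649618 to 31249286 per library. WT replicate 3 stood apart: its mean root-mean-square log2 difference over tested genes was 0.586 from the KO libraries and 0.597 from the other WT libraries, whereas each of the other 3 WT libraries was nearer to its own group. All 10 hepatocyte markers listed were tested and none was called in the edgeR fit with genotype as the only term (2 at an unadjusted p under 0.05), with albumin (Alb) at 95221 ± 8709 CPM (counts per megaread of TMM-scaled depth) in KO livers and 104488 ± 7247 CPM in WT livers (SD, n = 4 each). Apob and Cyp2e1 were lower in every KO than in every WT liver (log2 fold changes −0.39 and −0.32, edgeR adjusted p = 0.0613 and 0.190), and 1 hepatocyte marker was called lower with DESeq2, which called 0 higher, as well as without the low-count filter and with the number series as a covariate. Over all genes tested, these settings called 7.57%, 3.38% and 4.94% in either direction. Elavl1 counts were not lower in the libraries labelled KO, and without the deleted part being known they check neither label, so KO and WT livers are those so labelled.

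The pentamer ATTTA, the core of the AU-rich element, was present in the 3′ UTR of all of these genes but Ybx1, as it is in most long 3′ UTRs. The 30-base stretch of each 3′ UTR with the most copies is shown for Elavl1, for the 3 Zfp36 family genes and for Tia1, with every ATTTA in capitals, and that of Khsrp stands beside them as a 3′ UTR with a single copy. Sequences are given 5′ to 3′ on the strand of the mRNA, as DNA, from GENCODE M21 transcripts on GRCm38.
Elavl1 (chr8:4285776-4285805, minus strand): tATTTATTTATTTATTTAtttttATTTAtt
Zfp36 (chr7:28376958-28376987, minus strand): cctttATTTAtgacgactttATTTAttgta
Zfp36l1 (chr12:80108431-80108460, minus strand): cttATTTAacttatcaaaacgtATTTAttg
Zfp36l2 (chr17:84184918-84184947, minus strand): gaaaaactATTTAacttATTTAttatcttg
Tia1 (chr6:86430469-86430498, plus strand): gatacaatgtATTTATTTAaaagattcatt
Khsrp (chr17:57021585-57021614, minus strand): aaaatagcaagaATTTAacctctgccccgc

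Elavl1 held the densest of these stretches, with 5 copies of ATTTA in 30 bases, 4 of them overlapping by 1 base. Its 3′ UTR of 4218 bases had 17 ATTTA in all, more than 94.6% of 3′ UTRs of like length (between 0.8 and 1.25 times as long). It also held 8 copies of the nonamer TTATTTATT, which 18.2% of 3′ UTRs of like length hold at all. Elavl2 had 15 ATTTA in 2477 bases and Zfp36l1 had 9 in 1835 bases, more than 98.4% and 94.3% of 3′ UTRs of like length. The short 3′ UTR of Zfp36 (774 bases) had 3 ATTTA, and all 3 lay within the heptamer TATTTAT preferred by the Zfp36 family, which 19.7% of like-length 3′ UTRs hold. Khsrp had 1 ATTTA and no TATTTAT but 22 overlapping runs of TTTTTTT, and Ybx1 had none of the motifs searched in 418 bases. Matches were counted on the mRNA strand with overlaps allowed (TTATTTATT contains TATTTAT, which contains ATTTA). They describe the letters and do not show binding.

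**Figure D1:**
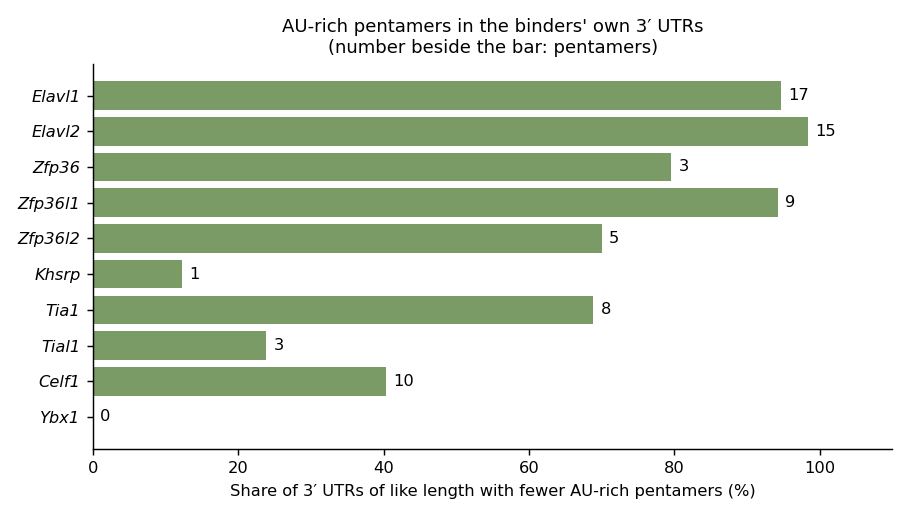
For each of the 10 genes, the bar gives the percentage of 3′ UTRs of like length that hold fewer AU-rich pentamers, and the number beside it counts the pentamers. Elavl2, Elavl1 and Zfp36l1 stand at 98.4%, 94.6% and 94.3%, and Khsrp and Ybx1 at 12.3% and 0%.

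None of the 9 tested genes was called higher or lower in KO livers. Over all 14645 genes tested, edgeR's quasi-likelihood test at a Benjamini-Hochberg adjusted p under 0.05 called 2.32% higher (340 genes) and 1.37% lower (201 genes), or 3.69% in either direction, so that a count of 0 among 9 genes is near this background. At an unadjusted p under 0.05 there was 1 member, Elavl1, beside 18.05% of all tested genes, and DESeq2 and limma-voom each called 0 members while calling 7.57% and 3.19% of the genes they tested. The log2 fold changes of the 9 genes (KO over WT) ran from −0.18 for Ybx1 to 0.25 for Elavl1 with a median of 0.06, beside a median of 0.00 over all genes. The unadjusted 95% intervals left room for a rise of at most 1.71-fold and for a fall to at most 0.590 of the WT level, both limits being those of Zfp36. A 2-fold change of any of the 9 mRNAs thus lay outside its interval, but smaller changes did not. The libraries are of bulk liver RNA, in which fewer cells of a type and less RNA per cell cannot be told apart.

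**Figure D2:**
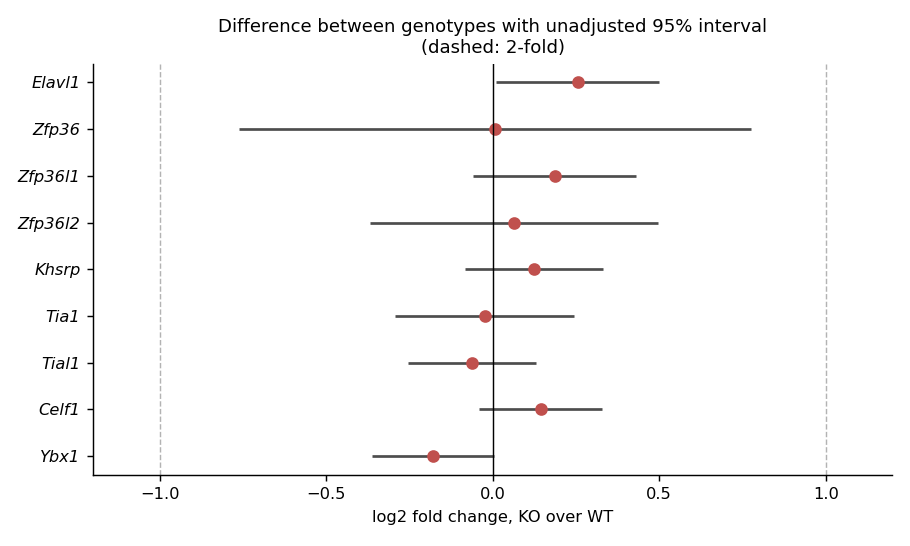
Points are log2 fold changes of KO over WT from the edgeR fit and lines their unadjusted 95% intervals, with dashed lines at a 2-fold change. The intervals of 8 genes include 0 and that of Elavl1 begins just above it at 0.01, before adjustment over all genes.

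Elavl1 (ENSMUSG00000040028, mm10 chromosome 8, 4284782 to 4325100, minus strand) was sequenced to between 840 and 1615 reads per library. It stood at 49.4, 56.0, 49.1 and 45.6 CPM in KO replicates 1 to 4, against 32.7, 45.7, 42.9 and 46.6 CPM in WT replicates 1 to 4. The 3 highest libraries were KO livers and the lowest was WT replicate 1, but KO replicate 4 lay below WT replicates 2 and 4, so the groups overlapped. The means were 50.02 ± 4.33 and 42.0 ± 6.41 CPM in KO and WT livers (SD, n = 4 each), a 1.19-fold difference with a 95% interval from 1.01-fold to 1.41-fold (log2 fold change 0.25, SE 0.11, edgeR adjusted p = 0.258, exact two-sided permutation p = 0.0857). The annotated 3′ UTR makes up 70.0% of the exon length over which the reads were summed. The table holds no counts per exon and does not show whether reads of a deleted exon are missing.

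Elavl2 (chromosome 4, 91250763 to 91400785), the HuB protein of neurons and germ cells, had 0 reads in all 8 libraries. A count of 0 allows up to 3 reads, which is at most 0.118 CPM in a KO library and at most 0.161 CPM in a WT library, for counting error only. Of the other neuronal relatives, Elavl4 also had 0 reads in all libraries, and Elavl3 had 2 reads over the KO libraries and 0 over the WT libraries. Of 10 neuron markers listed, Gap43, Nefl and Snap25 also had 0 reads in all libraries and 4 were tested. Of these Map2 rose, at 3.67 ± 0.613 CPM in KO livers and 1.93 ± 0.443 CPM in WT livers (edgeR adjusted p = 0.0461). No neuron marker was called in 9 of 18 alternative settings, among them those without any 1 of the KO libraries and without WT replicate 1 or 2, and 2 were called higher without WT replicate 3. That last setting called 8.32% of all genes it tested in either direction.

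Zfp36 (chromosome 7, 28376784 to 28379255, minus strand) encodes tristetraprolin, and its mRNA is induced within minutes by growth factors and inflammatory signals. Its levels were 199, 92.1, 143 and 153 CPM in KO replicates 1 to 4 and 189, 121, 189 and 84.1 CPM in WT replicates 1 to 4. Both groups spanned about the same range, with the lowest values in KO replicate 2 and WT replicate 4. The means were 147 ± 43.7 CPM in KO livers and 146 ± 52.4 CPM in WT livers (log2 fold change 0.01, SE 0.33, edgeR adjusted p = 0.995). Zfp36 was the most variable of the 9 genes, with an SD of 0.48 in log2 CPM over the 8 libraries, a spread exceeded by 20.6% of tested genes. The sign of its difference changed in 5 of 18 alternative settings.

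Other fast-induced genes varied between the same livers. Fos, a subunit of the AP-1 transcription factor, was at 15.8, 2.50, 6.14 and 4.89 CPM in KO replicates 1 to 4 and at 10.5, 2.26, 4.30 and 1.72 CPM in WT replicates 1 to 4. KO replicate 2, WT replicate 2 and WT replicate 4 were the 3 lowest libraries for Fos, as they were for Zfp36. Junb, another AP-1 subunit, was at 82.9, 16.4, 42.9 and 59.6 CPM in KO livers and at 28.4, 17.7, 29.5 and 21.2 CPM in WT livers, and the same 3 libraries were its lowest. Dusp1, a phosphatase gene induced alongside them, did not share this order, with 61.0, 55.4, 52.5 and 56.8 CPM in KO livers and 148, 47.8, 63.7 and 46.8 CPM in WT livers. Fos, Junb, Egr1 and Dusp1 are shown after their values were seen, and none of them was called by edgeR with genotype as the only term (adjusted p = 0.741, 0.321, 0.515 and 0.633). Junb was called higher in 1 of 18 alternative settings, that without KO replicate 2 (log2 fold change 1.35, edgeR adjusted p = 0.0343).

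**Figure D3:**
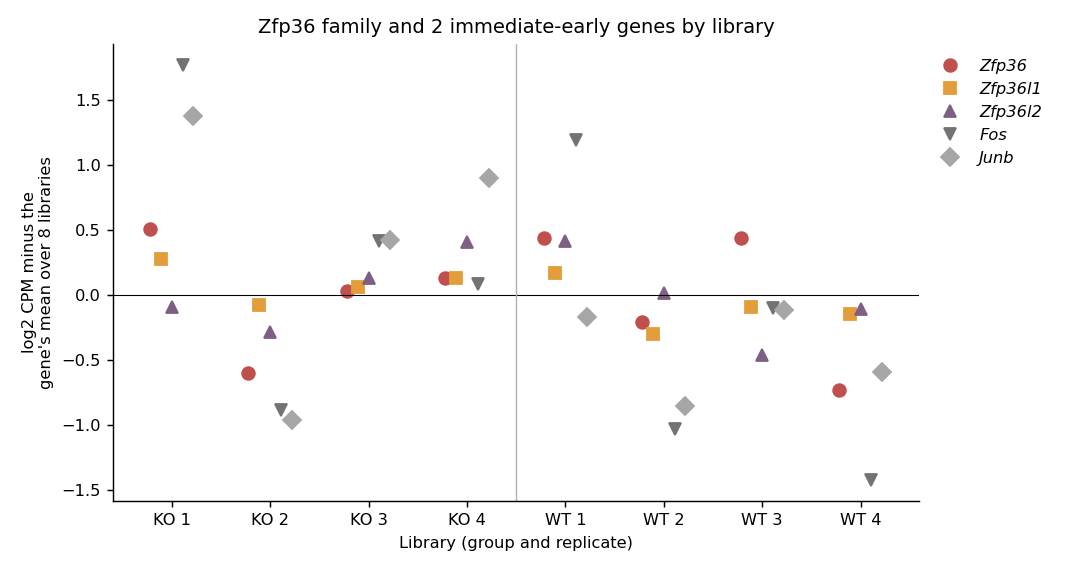
Each point is log2 CPM of a gene in one library minus its mean over the 8 libraries, with KO livers on the left and WT livers on the right. Zfp36, Fos and Junb are lowest in KO replicate 2 and in WT replicates 2 and 4, whereas Zfp36l1 stays within a narrow band.

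Zfp36l1 (chromosome 12, 80107760 to 80113013, minus strand), known in mouse liver for destabilising the mRNA of the bile acid synthesis enzyme Cyp7a1, was at 233, 183, 202 and 211 CPM in KO replicates 1 to 4 and at 217, 157, 181 and 174 CPM in WT replicates 1 to 4. All but WT replicate 1 of the WT livers lay below all KO livers. The means were 207 ± 20.8 and 182 ± 25.3 CPM in KO and WT livers, a log2 fold change of 0.19 (SE 0.11) with an edgeR adjusted p of 0.424. An annotated gene on the opposite strand, Gm26669, overlaps 1672 bp of its exons but had 2 reads over all libraries in the strand-specific count. Cyp7a1 itself, named here after its values were seen, was at 129 ± 90.3 CPM in KO livers and 317 ± 51.0 CPM in WT livers with no overlap, but was not called (log2 fold change −1.30, SE 0.51, edgeR adjusted p = 0.246). In all, 5.01% of tested genes had every KO library below every WT library and 6.19% had every KO library above.

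Zfp36l2 (chromosome 17, 84183931 to 84187947, minus strand), the third family member expressed in liver, was at 58.2, 51.0, 67.8 and 82.4 CPM in KO replicates 1 to 4 and at 82.7, 62.8, 45.2 and 57.5 CPM in WT replicates 1 to 4. The highest KO and the highest WT liver were nearly equal, and the means were 64.9 ± 13.6 and 62.0 ± 15.6 CPM in KO and WT livers (log2 fold change 0.06, SE 0.19, edgeR adjusted p = 0.910). The lowest library was WT replicate 3. Among the animals numbered 98 to 100 the log2 difference was 0.73, with that library as the only WT liver, and among those with 4-digit numbers it was −0.29. An interaction term between genotype and number series gave an unadjusted p of 0.00105 and an adjusted p of 0.385 for Zfp36l2 in edgeR, and called 0 of the 9 members and 3 of 14645 genes, the lone WT liver of the low series being assumed to vary like the others. For Elavl1 the log2 differences were 0.14 and 0.35 in the low and the 4-digit series.

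Khsrp (chromosome 17, 57021058 to 57031507, minus strand) encodes KSRP, a KH-domain protein that brings decay enzymes to AU-rich mRNAs and also promotes the maturation of certain microRNAs. It was at 54.4, 53.0, 47.1 and 50.2 CPM in KO replicates 1 to 4 and at 40.7, 51.7, 50.6 and 44.8 CPM in WT replicates 1 to 4. The groups overlapped, with the lowest level in WT replicate 1, and the log2 fold change was 0.12 (SE 0.10, edgeR adjusted p = 0.556).

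Tia1 and Tial1 encode TIA-1 and TIAR, which bind U-rich sequences, hold back translation and gather in stress granules. Tia1 (chromosome 6, 86404219 to 86433403, plus strand) was at 15.9, 18.1, 15.9 and 14.9 CPM in KO replicates 1 to 4 and at 14.5, 14.5, 18.9 and 18.0 CPM in WT replicates 1 to 4. Tial1 (chromosome 7, 128439777 to 128461717, minus strand) was at 58.4, 64.7, 64.1 and 67.7 CPM in KO replicates 1 to 4 and at 62.1, 67.1, 74.1 and 62.9 CPM in WT replicates 1 to 4. The ranges of the genotypes overlapped for both genes, and their log2 fold changes were −0.02 (SE 0.13) and −0.06 (SE 0.09), with edgeR adjusted p of 0.949 and 0.775. Of 16 stress granule and eIF2 kinase genes listed beside them, none was called by edgeR with genotype as the only term (4 at an unadjusted p under 0.05, median log2 fold change −0.02). The smallest p among them was that of Eif2ak2, the double-stranded RNA-activated kinase PKR, at 23.3 ± 1.48 CPM in KO livers and 29.9 ± 2.13 CPM in WT livers with no overlap (log2 fold change −0.36, SE 0.10, edgeR adjusted p = 0.0565). The next was Ddx3x, an RNA helicase, at 315 ± 21.6 and 405 ± 56.3 CPM in KO and WT livers (log2 fold change −0.37, edgeR adjusted p = 0.0942). DESeq2 called both of them lower, and limma-voom called 0 of the list, beside 7.57% and 3.19% of all genes called in either direction. Eif2ak2 was also called with the number series as a covariate (edgeR adjusted p = 0.0301), and Ddx3x without the low-count filter (0.0458) and without WT replicate 3 (0.0138).

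Celf1 (chromosome 2, 90940382 to 91019497, plus strand), whose protein binds GU-rich elements and recruits deadenylases, was at 143, 137, 136 and 148 CPM in KO replicates 1 to 4 and at 125, 128, 138 and 119 CPM in WT replicates 1 to 4. WT replicate 3 was the only WT liver that reached the KO range. The means were 141 ± 5.41 and 127 ± 7.75 CPM in KO and WT livers (log2 fold change 0.14, SE 0.09, edgeR adjusted p = 0.412, exact permutation p = 0.0857). Its own 3′ UTR of 6132 bases held 3 copies of TGTTTGT, the core of the GU-rich element, which 80.4% of 3′ UTRs of like length hold.

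Ybx1 (chromosome 4, 119277981 to 119294604, minus strand), which encodes the mRNA-packaging protein YB-1, was the 1 member whose groups did not overlap, beside 11.2% of tested genes. It was at 112, 123, 105 and 120 CPM in KO replicates 1 to 4 and at 128, 130, 130 and 133 CPM in WT replicates 1 to 4. All 4 KO livers were lower, at a mean of 115 ± 8.17 CPM, and the WT livers were closely grouped at 130 ± 2.27 CPM. The exact two-sided permutation p was 0.0286, the smallest that 4 against 4 libraries allow. The log2 fold change was −0.18 (SE 0.09), and edgeR did not call it (adjusted p = 0.285, from 0.210 to 0.591 over 18 alternative settings). Reads that map to several places were not counted, and a processed copy, Ybx1-ps2, had 939 reads over the 8 libraries, so the level of Ybx1 is uncertain.

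**Figure D4:**
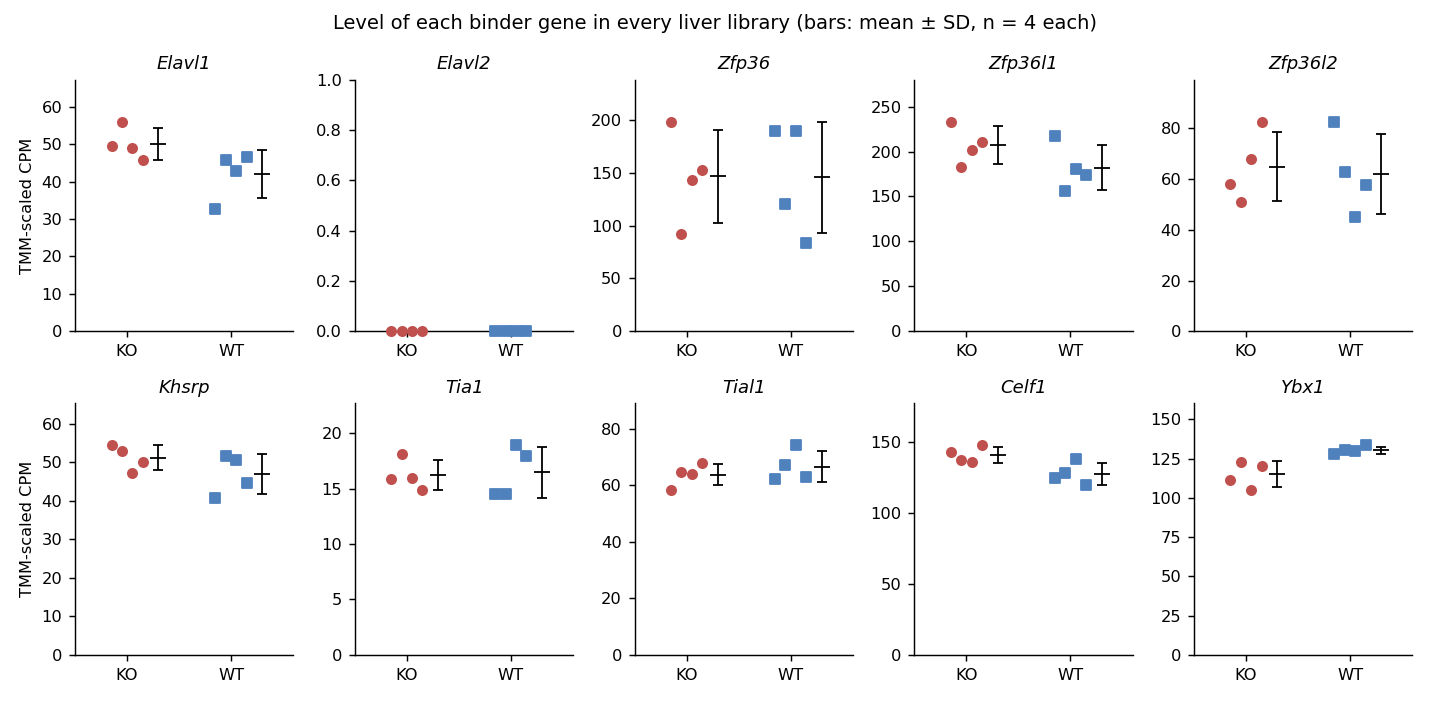
Each panel plots the TMM-scaled CPM of a gene in the 4 KO libraries (circles) and the 4 WT libraries (squares), with the mean and SD beside them. Ybx1 is the 1 tested gene whose groups do not overlap. Zfp36 and Zfp36l2 spread widely in both groups, and Elavl2 is at 0 throughout.

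To compare levels between genes, CPM were divided by the summed exon length in kilobases. Averaged over the 8 libraries, the order ran from Zfp36 (81.6 ± 24.9 CPM per kb) and Zfp36l1 (65.2 ± 8.48) through Ybx1 (48.5 ± 3.91), Zfp36l2 (18.0 ± 3.86), Celf1 (15.9 ± 1.12), Khsrp (12.3 ± 1.15) and Tial1 (11.1 ± 0.791) to Elavl1 (7.63 ± 1.10) and Tia1 (1.26 ± 0.135, SD, n = 8 each). Neighbours whose ranges overlapped were Zfp36 and Zfp36l1, Zfp36l1 and Ybx1, Zfp36l2 and Celf1, and Khsrp and Tial1. The ranges did not overlap between Ybx1 and Zfp36l2, between Celf1 and Khsrp, or between Elavl1 and either of its neighbours. TPM gave the same order. The lengths sum all annotated exons, which lowers the value of Tia1, with 12945 bp, and of other genes with many alternative exons. The annotated 3′ UTR makes up 70.0% of the length used for Elavl1 and 72.6% of that for Celf1. How much of it the liver mRNAs hold was not tested. By this measure Elavl1 made up 2.73% to 4.09% of the summed level of the 9 genes in KO livers and 1.84% to 3.52% in WT livers. The 3 Zfp36 family genes made up 56.0% to 68.6% in KO livers and 55.4% to 68.5% in WT livers, so both shares overlapped between the genotypes.

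A wider set of 50 genes for other RNA-binding proteins of mRNA stability and translation was listed, of which 41 were tested. Of these 1 rose in KO livers and 3 fell, with a median log2 fold change of −0.04, beside 2.32% and 1.37% of all tested genes. Celf2, the relative of Celf1, fell to 12.1, 13.9, 10.1 and 13.2 CPM in KO replicates 1 to 4, against 27.3, 29.1, 19.7 and 20.0 CPM in WT replicates 1 to 4 (log2 fold change −0.96, SE 0.15, edgeR adjusted p = 0.00324). Every KO liver was below every WT liver. The markers of lymphocytes, which also use CELF2, gave 0 calls among 10 tested genes in the edgeR fit with genotype as the only term. They summed to 26.2 to 32.7 CPM in KO livers and 26.6 to 44.3 CPM in WT livers. DESeq2 and the fit without the low-count filter each called 1 lymphocyte marker lower and 0 higher. Over all genes they tested, these fits called 7.57% and 3.38% in either direction. Ighm, the 1 marker at an unadjusted p under 0.05, was lower in every KO than in every WT liver (log2 fold change −0.73, edgeR adjusted p = 0.0760). The part of lymphocytes in the fall of Celf2 was not tested.

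Rbms3, a single-strand RNA-binding protein known to bind an mRNA of hepatic stellate cells, rose to 8.75, 10.6, 9.87 and 10.7 CPM in KO livers, against 3.32, 2.92, 5.68 and 4.71 CPM in WT livers (2.40-fold, log2 fold change 1.26, SE 0.20, edgeR adjusted p = 0.00341). All 4 KO livers were higher. Of 12 tested stellate cell markers 6 rose and 0 fell, beside 2.32% and 1.37% of all tested genes. Their summed level was 567 to 667 CPM in KO livers and 463 to 503 CPM in WT livers. Of 14 tested bile duct markers 11 rose and 0 fell, with sums of 243 to 354 CPM in KO livers and 90.7 to 137 CPM in WT livers. Of 12 tested endothelial markers 0 were called by edgeR with genotype as the only term (4 at an unadjusted p under 0.05). Their sums were 554 to 618 CPM in KO livers and 511 to 574 CPM in WT livers. The part of these cells in the rise of Rbms3 was not tested. Celf2 and Rbms3 were called in all 18 alternative settings.

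Pcbp2, a KH-domain protein that binds C-rich stretches, fell to 171 ± 7.24 CPM in KO livers, against 231 ± 25.4 CPM in WT livers (log2 fold change −0.43, SE 0.10, edgeR adjusted p = 0.0276). Pabpc4, a cytoplasmic poly(A)-binding protein, fell to 19.7 ± 1.40 CPM in KO livers, against 26.1 ± 2.22 CPM in WT livers (log2 fold change −0.41, SE 0.11, edgeR adjusted p = 0.0471). Neither gene overlapped between the groups, but both calls were fragile. That of Pcbp2 was lost without any 1 of the KO libraries, without WT replicate 1 or 2 and among the animals with 4-digit numbers, with an adjusted p of up to 0.0992. That of Pabpc4 was lost without any 1 library other than WT replicate 3, with an adjusted p of up to 0.147. Without WT replicate 3 the list had 2 higher and 5 lower calls, the higher ones being Rbms3 and Igf2bp3. That fit called 8.32% of all genes it tested in either direction, against 3.69% with all libraries.

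Igf2bp3, an RNA-binding protein of fetal tissues that is nearly silent in adult liver, was left out by the low-count filter and was singled out after its counts were seen. It had 8, 13, 13 and 14 reads in KO replicates 1 to 4 and 2, 0, 0 and 0 reads in WT replicates 1 to 4. All 4 KO livers were thus above all WT livers. The summed counts of 48 and 2 gave a ratio of 22.4 per unit of depth, with an exact 95% interval from 5.88 to 191 that covers counting error only. With no filter or with certain single libraries left out, Igf2bp3 entered 6 of the 18 alternative fits. It was called in 5 of them, and over the 6 fits the edgeR adjusted p ran from 0.0136 to 0.0658, the last without WT replicate 2, where it was not called. Since the gene was chosen for these counts, they and these calls are a description and no independent test. Its relative Igf2bp1 and the fetal genes Lin28a and Lin28b did not pass the filter.

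**Figure D5:**
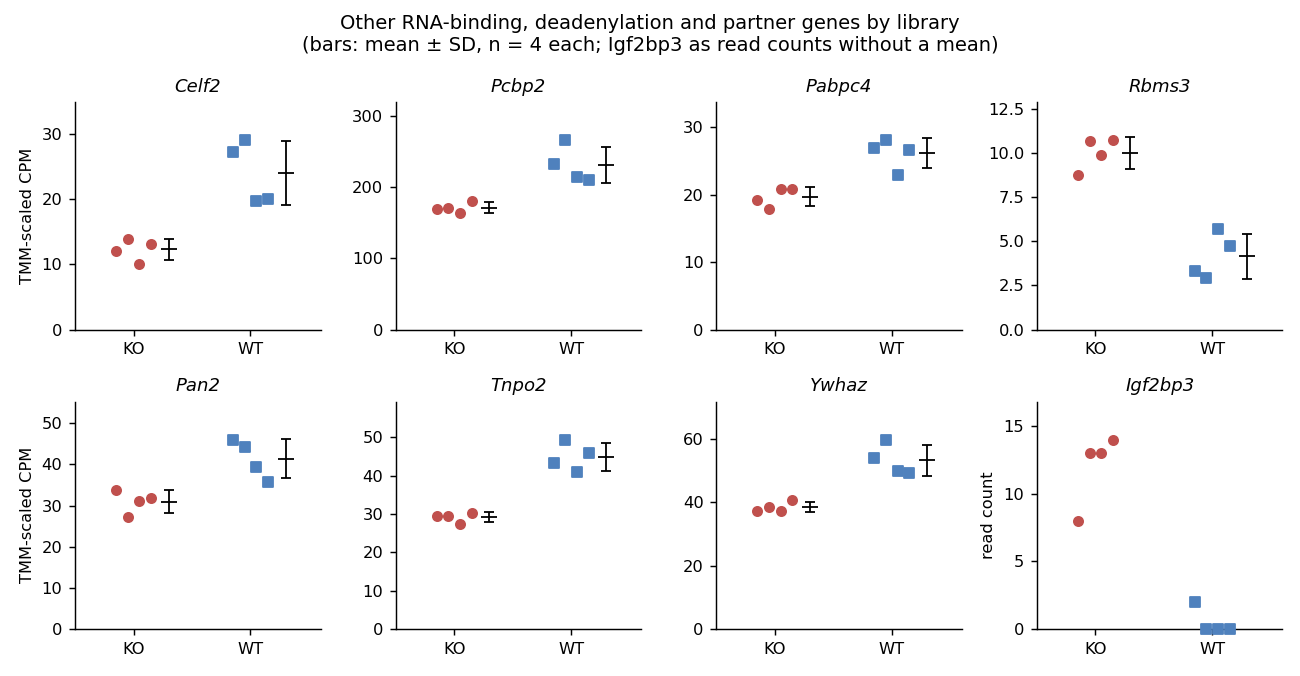
Points are TMM-scaled CPM in the 4 KO and 4 WT libraries with the mean and SD, and for Igf2bp3 the read counts. In each panel all KO livers lie on one side of all WT livers, above them for Rbms3 and Igf2bp3 and below them for the other 6 genes. The genes were picked by their calls in these same libraries, or for Igf2bp3 by its counts, a choice that favours such separation. Among all tested genes, the groups did not overlap for 11.2%.

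The enzymes to which the decay-promoting binders lead an mRNA were listed with their adaptors and cofactors as 50 tested genes in 3 groups. Of these 1 was called, beside 3.69% of all tested genes. Of 18 for the shortening of the poly(A) tail, 1 fell and none rose, with a median log2 fold change of 0.00. Pan2, the catalytic subunit of the PAN2-PAN3 deadenylase, fell to 33.8, 27.1, 31.1 and 31.8 CPM in KO livers, against 46.0, 44.3, 39.5 and 35.8 CPM in WT livers (log2 fold change −0.42, SE 0.11, edgeR adjusted p = 0.0412). The groups did not overlap, but the call was lost in 11 of 18 alternative settings, among them those without any 1 of the KO libraries and those without WT replicate 1 or 2, with an adjusted p of up to 0.130. Of 17 for decapping and decay from the 5′ end, none was called (1 at an unadjusted p under 0.05). The 5′ exonuclease gene Xrn1 was at 30.5 ± 3.63 and 35.5 ± 3.81 CPM in KO and WT livers, and Lsm7, a subunit of the decapping activator ring, was at 0.776 ± 0.414 and 0.285 ± 0.180 CPM in KO and WT livers (adjusted p = 0.326 and 0.167 in edgeR). Of 15 for the exosome, which degrades from the 3′ end, and its cofactors, none was called (2 at an unadjusted p under 0.05). Those were Dis3, the catalytic subunit, with a log2 fold change of 0.27, and Exosc7, with one of 0.33 (adjusted p = 0.239 and 0.265 in edgeR). DESeq2 and limma-voom called none of the decapping or exosome genes.

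Among 27 genes for kinases, adaptors and transport receptors of these binders, 2 fell and none rose, beside 1.37% and 2.32% of all tested genes, with a median log2 fold change of 0.04. Tnpo2, one of the transportins that carry HuR into the nucleus, fell to 29.5, 29.4, 27.3 and 30.4 CPM in KO replicates 1 to 4, against 43.3, 49.4, 41.1 and 46.0 CPM in WT replicates 1 to 4. All KO livers were lower, with means of 29.1 ± 1.30 and 44.9 ± 3.60 CPM in KO and WT livers (log2 fold change −0.62, SE 0.09, edgeR adjusted p = 0.00208). Ywhaz, an adaptor of the family that holds phosphorylated tristetraprolin inactive, fell to 37.1, 38.6, 37.3 and 40.6 CPM in KO livers, against 53.9, 59.8, 49.7 and 49.4 CPM in WT livers (log2 fold change −0.47, SE 0.09, edgeR adjusted p = 0.0106). All KO livers were lower here too. Both genes were called in all 18 alternative settings, with adjusted p of at most 0.0121 for Tnpo2 and 0.0482 for Ywhaz. The kinase genes of the pathway that inactivates tristetraprolin, Mapk14 and Mapkapk2, were not called (log2 fold changes 0.24 and −0.24, edgeR adjusted p = 0.194 and 0.325), and both are named after their values were seen.

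Of 37 mRNAs reported as bound or destabilised by the Zfp36 family, 28 were tested and none was called by edgeR with genotype as the only term. At an unadjusted p under 0.05 there were 5, beside 18.05% of all tested genes, and the median log2 fold change of the 28 was −0.06. The smallest p was that of Socs3, an inhibitor of cytokine signalling, at 22.4, 10.6, 18.6 and 24.0 CPM in KO livers and 8.24, 5.75, 11.3 and 10.8 CPM in WT livers (log2 fold change 1.07, SE 0.28, edgeR adjusted p = 0.0677). KO replicate 2 lay within the WT range, and Socs3 was called in 4 of 18 alternative settings, among them those without that library and with the non-robust fit (edgeR adjusted p = 0.00661 and 0.0378). The next was Nfkbia, the inhibitor of NF-kappaB, at 46.1, 33.2, 28.4 and 28.1 CPM in KO livers and 52.9, 54.9, 45.5 and 42.9 CPM in WT livers (log2 fold change −0.53, SE 0.15, edgeR adjusted p = 0.0738). KO replicate 1 was the only KO liver in the WT range, and Nfkbia was called in 5 of 18 alternative settings, among them those without that library, with the number series as a covariate and without the low-count filter (edgeR adjusted p = 0.00868, 0.0352 and 0.0362). DESeq2 called 1 of this list higher and 1 lower, and limma-voom called 1 lower. Of 25 tested immediate-early genes, which include Socs3, none was called with genotype as the only term (4 at an unadjusted p under 0.05), with a median of 0.23 that ran from 0.04 without KO replicate 1 to 0.39 without KO replicate 2. Ier2 had the smallest p and no overlap, at 28.3 ± 4.49 CPM in KO livers and 20.5 ± 2.86 CPM in WT livers (log2 fold change 0.47, SE 0.13, edgeR adjusted p = 0.0652). It was called in 4 of 18 alternative settings, among them those with the number series as a covariate and without the low-count filter (edgeR adjusted p = 0.0310 and 0.0158). DESeq2 called 3 of the immediate-early genes higher, and limma-voom called 0. Over all genes they tested, DESeq2 and limma-voom called 7.57% and 3.19% in either direction.

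Across the transcriptome, genes were grouped by the motifs in their 3′ UTR, a grouping added after the data were seen. Of 12713 tested genes with an annotated 3′ UTR, 2.57% were called higher in KO livers and 1.36% lower. Among the 3509 genes with the Zfp36-type heptamer TATTTAT, 2.31% were called higher and 1.48% lower, with a median log2 fold change of −0.01, against 2.67%, 1.31% and 0.01 among the 9204 genes without it. Among the 5179 genes with the U-rich run TTTTTTT, of the kind bound by HuR and TIA-1, 2.74% were higher and 1.72% lower with a median of −0.01, against 2.46%, 1.11% and 0.01 among the 7534 without it. The CELF1-type heptamer TGTTTGT was held by 3361 genes, whose median was −0.01, against 0.01 in the 9352 without it. The signs of these small medians depended on the scaling. With upper-quartile scaling the medians with and without the motif were 0.02 and 0.03 for TATTTAT, 0.01 and 0.04 for TTTTTTT, and 0.02 and 0.03 for TGTTTGT. By the number of ATTTA the medians were −0.06 with 10 or more (735 genes), −0.02 with 5 to 9, 0.01 with 1 to 4 and 0.02 with none (4276 genes). The difference between the outer classes was −0.08 and ran from −0.12 to −0.06 over the 18 alternative settings. The 3′ UTRs of these classes also differed in length, with medians of 4401 and 363 bases in the outer classes, and the part of length in the difference was not tested.

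Among 12901 genes with a mean log2 CPM above 0, the patterns over the 8 libraries most like that of Elavl1 were found by the root-mean-square difference of standardised log2 CPM, in which 0 is an identical pattern. They were those of Gm11844 (0.229), Msto1 (0.273), Top3b (0.281), Tomm70a (0.299) and Pgam5 (0.305). Each was lowest in WT replicate 1, as was Elavl1, and none was called between the genotypes. For Zfp36 the nearest were Fto (0.234), Kdm3b (0.249), Il1a (0.301), Mdc1 (0.324) and Ago4 (0.338), each lowest in WT replicate 4 and with an edgeR adjusted p of at least 0.794. Both sets were picked on these same 8 libraries, so a shared lowest library and the lack of a call largely follow from the choice. Standardising also removes the size of the differences: Fto ran from 38.2 to 46.3 CPM and Zfp36 from 84.1 to 199 CPM. Il1a encodes a cytokine, and Ago4 a small-RNA-binding Argonaute protein.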

How the data were processed

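Per the labels' protocols, frozen livers gave total RNA (Nucleospin RNA II kit) and strand-specific mRNA libraries (NEBNext Ultra Directional kit). The authors deposited raw read counts per gene. Per the submitters' processing notes they used bcl2fastq 2.19.1, GSNAP and featureCounts 1.5.1 on mm10 (GRCm38), and per the file headers the Ensembl 81 annotation, strand setting 2 and a minimum mapping quality of 1, without the setting that counts multi-mapping reads. The 92 ERCC spike-in rows, with 0 counts, were not used. The deposited lengths, in another column, are summed exon lengths in bp. Symbols were found for 45143 of 45706 gene identifiers.

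Counts were analysed with edgeR 4.0.16 in R 4.3.3: filterByExpr (minimum count 10), TMM scaling and the robust quasi-likelihood test, with Benjamini-Hochberg adjustment over 14645 genes and calls at an adjusted p under 0.05. SEs come from the F statistic. Log2 CPM used a prior count of 2. Single genes were also compared by exact two-sided permutation of log2 CPM, whose smallest p is 0.0286. limma 3.58.1 (voom), DESeq2 1.42.0, other scalings and filters, a replicate block, a number-series covariate and leaving out each library were alternatives. The edgeR step was tested on simulated data. Every pair of libraries differed by more than sampling noise (chi-square per degree of freedom of at least 16.8). Each library is 1 mouse.

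The members and gene lists were chosen with earlier results of these data known. The rule names all 10 members and, per list, up to 4 called genes in order of p or, with none called, the 2 of smallest p, and the 5 nearest patterns to Elavl1 and to the most variable member. Exosc6 of the exosome list matched no row and is not analysed here. 3′ UTRs are those of the GENCODE M21 basic protein-coding transcript with the longest coding sequence.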

Additional observations from a re-analysis of the deposited data

How the results depend on the processing

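None of the 9 tested members was called higher or lower in any of 18 alternative fits, in which the smallest adjusted p was 0.202. Of their 162 alternative log2 fold changes 149 kept their sign and 13 did not, all of these in Zfp36, Zfp36l2 or Tia1. The counts over all genes depended on the setting more: against 340 higher and 201 lower, there were 613 and 495 with DESeq2, 328 lower without a low-count filter, 308 lower with the number series as a covariate, and 215 higher among the animals with 4-digit numbers. Leaving out 1 library at a time gave from 151 to 710 higher (without WT replicate 2 and without WT replicate 3) and from 71 to 534 lower (without the same libraries). What makes these counts differ was not tested. With the replicate number as a block, edgeR called 0 members and 564 of 14645 genes, against 541 without the block. With the block Socs3, Nfkbia and Ier2 were called (adjusted p = 0.00220, 0.0135 and 0.0340), and the calls of Pabpc4, Pan2 and the neuron marker list were lost. Same-numbered libraries did not deviate together, with correlations of deviations over genes of 0.03, 0.03, 0.12 and −0.15 for numbers 1 to 4, so the numbers were not taken as pairs, and only KO replicate 3 correlated best with its own number. The permutation p of each member was on the same side of 0.05 with a prior count of 0.5, and the order of levels was the same in TPM. Elavl1 had 840 reads or more in each library and Tia1 had 324 or more, whereas Elavl2, Igf2bp3 and Lsm7 were limited by depth.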
